A study of Mus musculus with 12 samples.

Results

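Genotype and stimulation were crossed in these cells, so that the response of each gene to LPS+ATP could be measured in wild-type and in Nlrp3-/- bone marrow-derived macrophages (BMDMs) and the 2 responses subtracted. BMDMs are macrophages grown in culture from mouse bone marrow. The interaction of a gene is its LPS+ATP response in Nlrp3-/- BMDMs minus its response in wild-type BMDMs, each response being the difference of group means of log2(FPKM + 1). FPKM divides the fragments assigned to a gene by its length in kilobases and by library size. Members were the 12174 autosomal genes with at least 1 FPKM in at least 3 of the 12 libraries, of 12622 such genes on any chromosome and 55335 in the table. At the edge of that filter, the third highest library was 1.0004 FPKM for Mir8094, which entered, and 0.9995 FPKM for Gm44509, which did not.

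Of the 12174 genes, 263 (2.16%) had an interaction of at least 1 log2 unit in either direction with an adjusted p under 0.05, and are called below. The cytokine and metabolic genes Inhba, Il12b, Il1b, Arg1, Acod1 and Nos2 rose less in Nlrp3-/- BMDMs, and Fosb, Ifit3, Ccl4 and Cxcl9 rose more. Cell-cycle genes such as Ccnb2 and Plk1 fell less, and the granulocyte granule genes Mpo and Elane fell more. The platelet chemokine gene Ppbp rose in wild-type and fell in Nlrp3-/- BMDMs.

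NLRP3 is the sensor of a cytosolic complex, the inflammasome, which activates caspase-1 and so the maturation of IL-1β and IL-18 and the pore-forming protein gasdermin D. Lipopolysaccharide (LPS), a bacterial cell wall component, primes the complex through TLR4 and NF-κB, which also switch on cytokine, chemokine and interferon-responsive genes. Extracellular ATP then triggers it through the P2X7 receptor. Macrophages that meet LPS leave the cell cycle, raise glycolysis and make nitric oxide, itaconate and prostaglandins.

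Total RNA was sequenced from 4 groups of 3 libraries, a control and an LPS+ATP group of each genotype. The labels give 4 h of LPS followed by 30 min of ATP in the stimulated groups, while the methods text of the study gives longer times for both agents. Control cells received neither agent. The knockout is constitutive, and no label gives the age, sex or substrain of the donor mice or says that replicates came from separate animals, so p-values measure the spread between these libraries, which may be technical.

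Library sums ran from 283278 to 299393 FPKM, and Pearson's r of log2 values was 0.990 to 0.993 within groups and 0.816 to 0.965 between groups. Several features changed with genotype and touch the results below. Xist was between 32.8 and 56.3 FPKM in Nlrp3-/- libraries and at most 0.0416 FPKM in wild-type libraries, and 4 Y-linked genes (Uty, Kdm5d, Ddx3y, Eif2s3y) had no value above 0 in any Nlrp3-/- library, so sex and genotype cannot be told apart here. Nnt, which differs between C57BL/6 substrains, was 4.09 to 10.3 FPKM in wild-type and 0.670 to 1.47 FPKM in Nlrp3-/- libraries at 1 of its identifiers. The other identifier was listed at 0 in the wild-type groups and averaged 7.34 and 3.15 FPKM in Nlrp3-/- control and LPS+ATP. A difference of substrain or other genetic background thus cannot be told apart from genotype either. Summed over 8 macrophage markers, all groups were high, at 20029 to 21221 FPKM in wild-type control, 11874 to 11942 in wild-type LPS+ATP, 19119 to 19363 in Nlrp3-/- control and 11186 to 11437 in Nlrp3-/- LPS+ATP. The 8 fibroblast markers summed to 159 to 163, 183 to 186, 1185 to 1202 and 906 to 922 FPKM in the same order, and the 12 markers of neutrophils and their precursors to 341 to 378, 111 to 128, 1868 to 1919 and 495 to 526 FPKM. T cell and dendritic cell markers summed to less than 1 FPKM in every library, and endothelial markers stayed at 11.1 FPKM or below. The 4 erythroid markers summed to 0.328 to 0.487, 0.742 to 1.35, 8.81 to 11.4 and 3.95 to 4.70 FPKM in that order of groups, the 4 mast cell and basophil markers to 1.47 to 1.94, 0.412 to 0.515, 9.0 to 10.4 and 3.60 to 4.19 FPKM, and the 4 B cell markers to 1.25 to 1.57, 0.461 to 0.855, 4.08 to 5.11 and 1.85 to 2.02 FPKM, so all 3 sums were highest in Nlrp3-/- control. In bulk RNA, fewer cells of a type and less RNA per cell cannot be told apart.

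For most genes the responses of the genotypes were close. The interaction lay within 0.5 log2 units of 0 for 86.7% of the 12174 genes, with a median of 0.02, a median SE of 0.10 and a range from the 5th to the 95th percentile of -0.62 to 0.54. Adjusted p alone was under 0.05 for 1792 positive (14.7%) and 1594 negative (13.1%) interactions. With the limit of 1 log2 unit, 88 were positive (0.723%) and 175 negative (1.44%). LPS+ATP induced 1023 genes (8.40%) and repressed 1340 (11.0%) in wild-type BMDMs, and induced 824 (6.77%) and repressed 982 (8.07%) in Nlrp3-/- BMDMs. These response counts depended on scaling: median-ratio scaling, which moved the median response of all genes from -0.25 to 0.00 in wild-type and from -0.24 to -0.01 in Nlrp3-/- BMDMs, gave 1375 induced and 836 repressed genes in wild-type and 1077 and 579 in Nlrp3-/- BMDMs. The median interaction moved only from 0.02 to 0.00 under it.

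Each called gene was placed by its responses. A gene had a weaker induction if wild-type BMDMs induced it and the interaction was negative, a stronger induction if Nlrp3-/- BMDMs induced it and the interaction was positive, and likewise for repression. It was reversed if the 2 responses passed the test in opposite directions. There were 92 genes with weaker induction, 21 with stronger induction, 57 with weaker repression, 59 with stronger repression, 1 reversed gene (Ppbp) and 33 for which neither response reached the limit. Of the 726 genes induced in both genotypes, 64 had a called interaction, and of the 738 repressed in both, 42 did. Counts of called genes in the gene lists below are to be read beside the 2.16% called over all genes. Counts by adjusted p alone stand beside 14.7% positive and 13.1% negative over all genes.

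**Figure D1:**
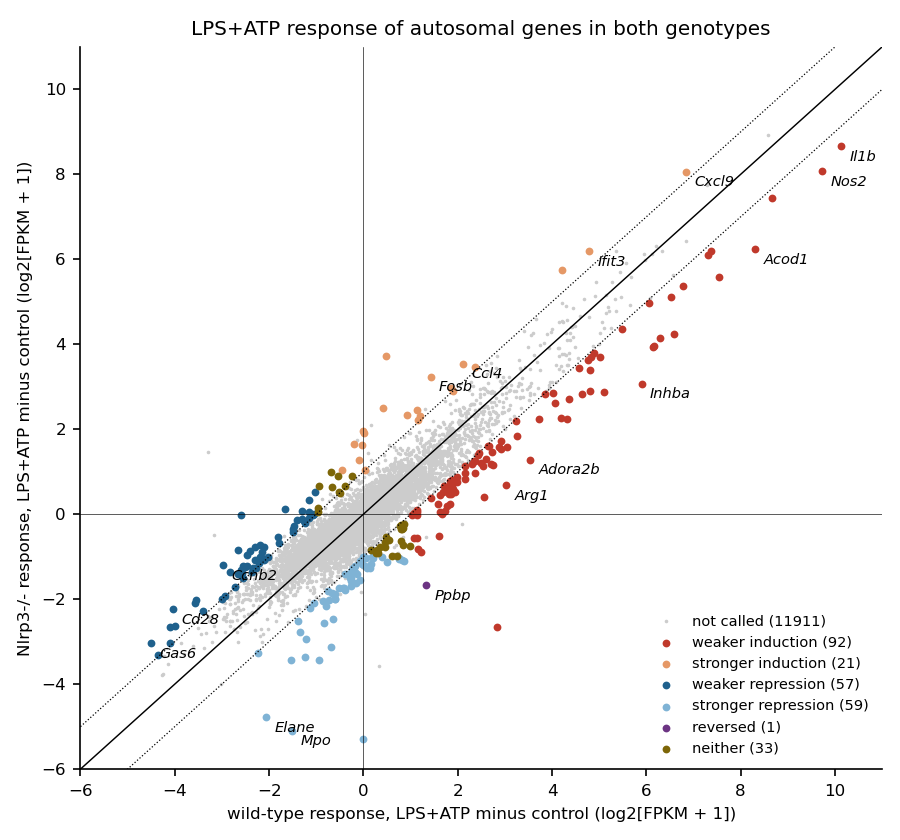
LPS+ATP response of the 12174 autosomal genes, with the difference of group means of log2(FPKM + 1) in wild-type BMDMs on the x axis and in Nlrp3-/- BMDMs on the y axis. The solid line marks equal responses, the dotted lines an interaction of 1 or -1, grey points are genes not called and coloured points the 263 called genes by class. Il1b, Nos2, Acod1 and Inhba lie below the lower dotted line, Cxcl9, Ifit3, Ccl4 and Fosb above the upper one, and Ppbp alone is coloured as reversed.

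The classes differed in the state in which the genotypes were apart. Among the 92 genes with weaker induction, 85 were higher in Nlrp3-/- control than in wild-type control and 71 were lower in Nlrp3-/- LPS+ATP than in wild-type LPS+ATP, and the median genotype difference was 0.99 log2 units in control and -0.39 with LPS+ATP. The 21 genes with stronger induction had a median genotype difference of -0.14 in control and 1.47 with LPS+ATP. Of the 57 genes with weaker repression, 47 were lower in Nlrp3-/- control and 43 were higher in Nlrp3-/- LPS+ATP, with medians of -0.82 and 0.40. The medians of the stronger repression class were 1.53 in control and 0.26 with LPS+ATP, but 24 of its 59 genes passed the filter of 1 FPKM only with the Nlrp3-/- control libraries and so had to be higher there. Likewise 8 genes with weaker repression passed only with wild-type control, 4 with stronger induction only with Nlrp3-/- LPS+ATP, and 5 with weaker induction only with wild-type LPS+ATP and 2 only with Nlrp3-/- control. The differences in the 2 states also make up the interaction that defines the classes, so these counts and medians are a description of the called genes and no support for a pattern.

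**Figure D2:**
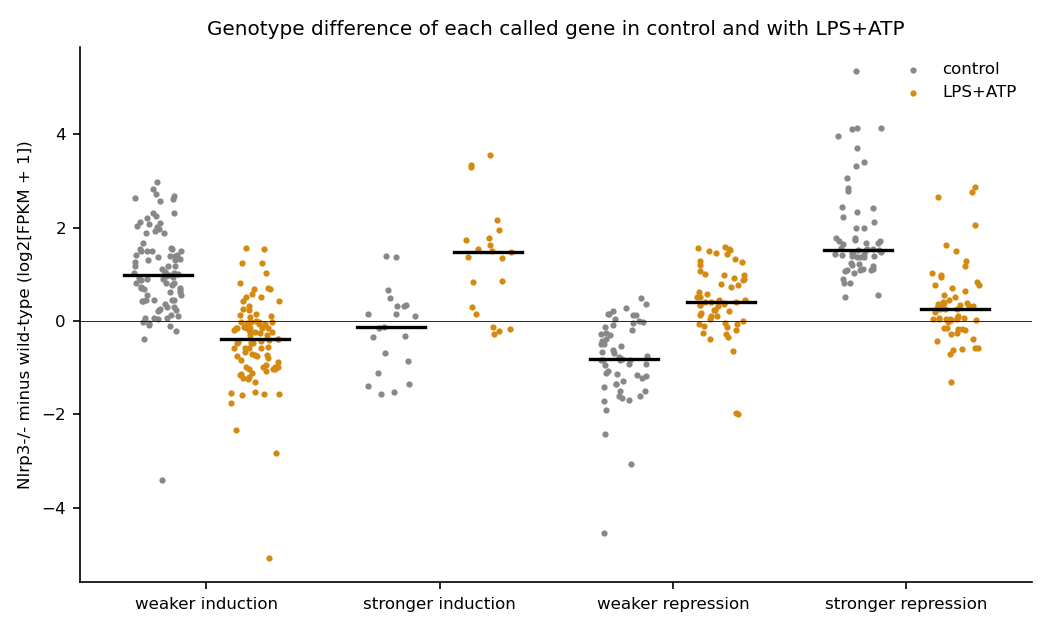
Genotype difference (Nlrp3-/- minus wild-type, log2[FPKM + 1], y axis) of each called gene in control (grey) and with LPS+ATP (orange) for the 4 main classes on the x axis, with black bars at the medians. Points of the stronger repression class sit above 0 in control and around 0 with LPS+ATP, while those of the stronger induction class separate mainly with LPS+ATP.

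The targeted gene checks the labels. Nlrp3 was at 9.24, 9.71 and 10.1 FPKM in wild-type control and 32.1, 33.0 and 33.6 FPKM in wild-type LPS+ATP, and was listed at 0 in all 6 Nlrp3-/- libraries. Its interaction of -1.67 ± 0.06 (SE) log2 units is therefore the wild-type induction itself. Of the 16 inflammasome and pyroptosis genes tested, 2 had a called interaction, Nlrp3 and Il1b (12.5%, against 2.16% of all genes). The median over the list was -0.27 against 0.02 over all genes.

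Il1b, the precursor of IL-1β, was at 0.235, 0.298 and 0.186 FPKM in wild-type control and at 1388, 1404 and 1366 FPKM with LPS+ATP, and at 1.73, 1.44 and 1.22 FPKM in Nlrp3-/- control and 996, 994 and 995 FPKM with LPS+ATP. It was higher in every Nlrp3-/- control library than in every wild-type control library, and lower in every Nlrp3-/- LPS+ATP library than in every wild-type LPS+ATP library. The response was 10.13 log2 units in wild-type and 8.66 in Nlrp3-/- BMDMs, an interaction of -1.46 ± 0.09 (SE, adjusted p = 8.59e-07). Because the control values lay near the pseudocount, the interaction was -0.78 with a pseudocount of 5, which ends the call. Il1b shares exon positions with its antisense gene Il1bos, and the counting is not stated to use strand, so their reads cannot be told apart.

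Il1a, encoding IL-1α, was at 3.14, 3.30 and 2.88 FPKM in wild-type control and at 1706, 1674 and 1640.1 FPKM with LPS+ATP, and at 3.77, 4.05 and 3.76 FPKM in Nlrp3-/- control and 850.4, 833 and 851 FPKM with LPS+ATP. The controls were within 1 FPKM of each other on average, and the stimulated libraries of the genotypes did not overlap. Its interaction was -1.23 ± 0.06 (adjusted p = 1.29e-07), and it overlaps an exon of Gm14023. Il1b and Il1a were the 2 called genes of the 11 IL-1 family and receptor genes, whose median interaction was -0.27.

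The other inflammasome components passed no call. Casp1, encoding caspase-1, rose by 1.85 log2 units in wild-type and 1.45 in Nlrp3-/- BMDMs, an interaction of -0.40 ± 0.09 (adjusted p = 0.00767). Pycard, the adaptor ASC, had an interaction of 0.21 (adjusted p = 0.134), Il18 of -0.27 (adjusted p = 0.102) and P2rx7, the ATP receptor, of -0.11 (adjusted p = 0.678). Gsdmd, encoding gasdermin D, had an interaction of 0.19 (adjusted p = 0.0417), below the size limit.

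Inhba, which encodes the subunit of activin A, a growth factor of the TGF-β family, was at 1.31, 1.23 and 1.16 FPKM in wild-type control and 132, 133 and 133 FPKM with LPS+ATP, and at 8.29, 8.50 and 7.73 FPKM in Nlrp3-/- control and 77.0, 74.3 and 77.8 FPKM with LPS+ATP. Neither pair of groups overlapped, and the genotypes were ordered oppositely in control and with LPS+ATP. Wild-type BMDMs raised it 108-fold and Nlrp3-/- BMDMs 9.34-fold, and the interaction was -2.83 ± 0.06 (adjusted p = 3.46e-10).

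Il12b, the p40 subunit shared by IL-12 and IL-23, was at 0.0893, 0.0223 and 0.227 FPKM in wild-type control and 37.4, 36.1 and 37.3 FPKM with LPS+ATP, and at 0.830, 0.936 and 0.546 FPKM in Nlrp3-/- control and 11.8, 11.5 and 12.8 FPKM with LPS+ATP. The stimulated Nlrp3-/- libraries were all below the stimulated wild-type libraries, and the interaction was -2.21 ± 0.13 (adjusted p = 5.95e-07). Il27, encoding the p28 subunit of IL-27, had an interaction of -1.11 ± 0.22 (adjusted p = 0.00310), which fell short of the limit at -0.90 without the third Nlrp3-/- control library and at -1.0 without the first wild-type control library. Its exons overlap those of Apobr.

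These were the 3 called genes of 26 secreted cytokines and growth factors (11.5%, against 2.16% of all genes), which had a median interaction of -0.18. Tnf, encoding the cytokine TNF, missed the limit narrowly: it went from 7.49 to 572 FPKM on average in wild-type and from 11.5 to 422 FPKM in Nlrp3-/- BMDMs, an interaction of -1.0 ± 0.06 (adjusted p = 1.32e-06) that was -1.05 with median-ratio or upper-quartile scaling and then called. Il6 had an interaction of -0.58 and Il10, an anti-inflammatory cytokine gene, of 0.43 ± 0.14 (adjusted p = 0.0438).

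Chemokine genes, whose products attract leukocytes, divided. Among 22 tested, 3 interactions were negative and called (Cxcl2, Cxcl1 and Cxcl12) and 2 positive (Ccl4 and Cxcl9), with a median of -0.20. Cxcl2 and Cxcl1, which attract neutrophils through CXCR2, had interactions of -1.42 ± 0.14 and -1.32 ± 0.08. Both genes were higher in Nlrp3-/- control, with mean values of 3.35 against 0.624 FPKM for Cxcl2 and 5.18 against 0.669 FPKM for Cxcl1, whereas with LPS+ATP Cxcl2 was at 148 FPKM on average in both genotypes and Cxcl1 at 79.9 FPKM in Nlrp3-/- against 53.4 FPKM in wild-type BMDMs. With a pseudocount of 5 the interactions were -0.57 and -0.31 and not called.

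Ccl4, which attracts monocytes and lymphocytes, went the other way. It was at 38.0, 34.9 and 32.7 FPKM in wild-type control and 151, 156 and 159 FPKM with LPS+ATP, and at 10.9, 12.2 and 10.8 FPKM in Nlrp3-/- control and 146, 135 and 145 FPKM with LPS+ATP. The genotypes were far apart in control and close, although not overlapping, with LPS+ATP, and the interaction was 1.43 ± 0.08 (adjusted p = 7.24e-07). Its neighbour in function Ccl3 had an interaction of 0.76 ± 0.07 and was not called, Ccl2 one of -0.57, and Ccl5 one of 0.36 (adjusted p = 0.118).

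Cxcl9, an interferon-γ-responsive ligand of CXCR3, was at 0.557, 0.507 and 0.797 FPKM in wild-type control and 175, 192 and 189.9 FPKM with LPS+ATP, and at 0.990, 0.697 and 0.734 FPKM in Nlrp3-/- control and 484, 472 and 487 FPKM with LPS+ATP. Control libraries of the genotypes overlapped, while every stimulated Nlrp3-/- library was well above the highest stimulated wild-type library. The interaction was 1.21 ± 0.11 (adjusted p = 1.15e-05).

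Receptors for formylated peptides, which guide phagocytes to bacteria and damaged tissue, were among the genes of weaker induction. Fpr1 was at 5.11, 4.30 and 7.0 FPKM in wild-type control and 497, 519 and 488 FPKM with LPS+ATP, and at 32.8, 27.4 and 28.0 FPKM in Nlrp3-/- control and 548, 533 and 524 FPKM with LPS+ATP. The stimulated levels were close, and the control levels were apart without overlap, so that the interaction of -2.16 ± 0.17 (adjusted p = 5.74e-06) rested on the controls. Fpr2, for which a near copy (Gm5966) and an overlap with Fpr3 leave the reads uncertain, had an interaction of -2.35 ± 0.09. They were the 2 called genes of 15 chemoattractant receptors, with a list median of -0.29.

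Receptors for ATP and adenosine, the ligands of the second stimulus and of its breakdown product, gave 2 called genes of 13, with a list median of 0.00. Adora2b, the low-affinity adenosine receptor A2B, was at 1.92, 1.79 and 2.18 FPKM in wild-type control and 31.5, 34.9 and 33.6 FPKM with LPS+ATP, and at 2.08, 1.55 and 1.81 FPKM in Nlrp3-/- control and 5.28, 6.25 and 5.94 FPKM with LPS+ATP. Controls overlapped and stimulated libraries did not. Wild-type BMDMs raised Adora2b 17.0-fold and Nlrp3-/- BMDMs 3.21-fold, and the interaction was -2.25 ± 0.11 (adjusted p = 2.60e-07). The other called gene was P2rx1, an ATP-gated channel of platelets described with them below.

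Of 14 genes of arginine, nitric oxide, itaconate and prostaglandin metabolism, 6 were called (42.9%, against 2.16% of all genes). All were negative with weaker induction (Arg1, Acod1, Ptgs2, Nos2, Slc7a2 and Ptges), and the list median was -0.91. Acod1, the enzyme that makes itaconate, was at 8.98, 9.95 and 8.47 FPKM in wild-type control and 3268, 3195 and 3154 FPKM with LPS+ATP, and at 23.4, 24.3 and 24.9 FPKM in Nlrp3-/- control and 1889, 1915 and 1904 FPKM with LPS+ATP. Neither pair of groups overlapped. The interaction was -2.07 ± 0.06 (adjusted p = 7.49e-09).

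Nos2, inducible nitric oxide synthase, was at 0.281, 0.127 and 0.166 FPKM in wild-type control and 1020.1, 990.3 and 1003 FPKM with LPS+ATP, and at 1.02, 0.692 and 0.813 FPKM in Nlrp3-/- control and 487, 504 and 490.1 FPKM with LPS+ATP. Stimulated Nlrp3-/- libraries held about the same level as each other and less than any stimulated wild-type library. Its interaction was -1.65 ± 0.09 (adjusted p = 4.14e-07). Ptgs2, encoding the prostaglandin-forming enzyme COX-2, had an interaction of -1.96 ± 0.09, with means of 245 FPKM in stimulated wild-type and 166 FPKM in stimulated Nlrp3-/- BMDMs.

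Arg1, which competes with NOS2 for arginine, was at 1.05, 1.23 and 1.14 FPKM in wild-type control and 16.3, 16.1 and 16.9 FPKM with LPS+ATP, and at 13.3, 11.9 and 12.6 FPKM in Nlrp3-/- control and 19.8, 21.8 and 21 FPKM with LPS+ATP. Nlrp3-/- control libraries already lay near the stimulated wild-type level. Its interaction was -2.34 ± 0.07 (adjusted p = 7.49e-09).

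**Figure D3:**
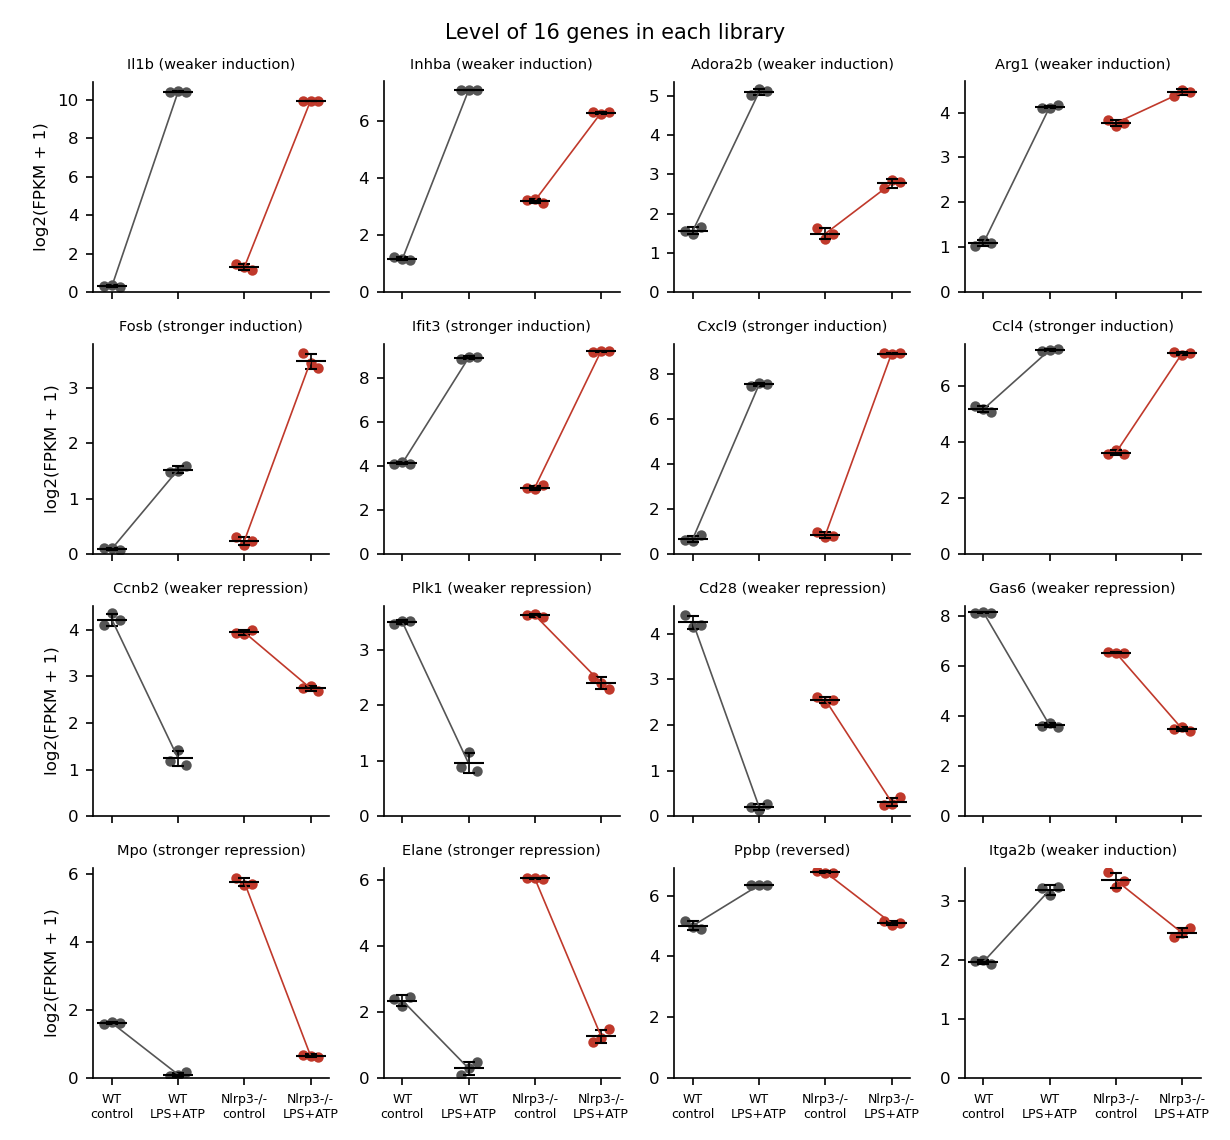
Level of 16 genes in each of the 12 libraries as log2(FPKM + 1) (y axis from 0), by group on the x axis, wild-type (WT) in grey and Nlrp3-/- in red. Points are libraries, horizontal marks and bars are the mean and SD of 3 libraries, and lines join the control and LPS+ATP means of a genotype. Il1b and Inhba cross between the states, Adora2b and Cxcl9 separate only with LPS+ATP, Mpo and Cd28 are apart mainly in control, and the lines of Ppbp and Itga2b run in opposite directions.

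Genes that answer damaged proteins were examined through a list of 20 heat shock proteins and co-chaperones that was chosen after the values were seen. Of these, 3 were called, all negative (Hspa1b, Hspa1a and Hspb1), and the median was -0.46. Hspa1b, an inducible HSP70, was at 1.19, 1.11 and 1.20 FPKM in wild-type control and 151, 154 and 154 FPKM with LPS+ATP, and at 2.59, 2.30 and 2.61 FPKM in Nlrp3-/- control and 54.0, 52.3 and 50.8 FPKM with LPS+ATP. No groups overlapped, with the stimulated wild-type libraries far above all others, and the interaction was -2.22 ± 0.06 (adjusted p = 2.55e-09). Hspa1a, a near copy whose reads may be shared with Hspa1b, had an interaction of -2.19 ± 0.09, and Hspb1, which has near copies Gm9817 and Hsp25-ps1, one of -1.69 ± 0.13. Hspb1 rose from 1.67 to 4.85 FPKM in wild-type BMDMs. In Nlrp3-/- BMDMs it fell from 10.5 to 6.84 FPKM, a response of -0.55 that was not called, and so stayed above wild-type with LPS+ATP.

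The promoter of Hspa1b is shown because the inducible HSP70 genes had the largest interactions of that list. It covers chr17:34959189-34959488 of GRCm38.p6 on the minus strand (RefSeq), and capitals mark GAANNTTC, the paired inner units of a heat shock element searched on both strands.
Hspa1b: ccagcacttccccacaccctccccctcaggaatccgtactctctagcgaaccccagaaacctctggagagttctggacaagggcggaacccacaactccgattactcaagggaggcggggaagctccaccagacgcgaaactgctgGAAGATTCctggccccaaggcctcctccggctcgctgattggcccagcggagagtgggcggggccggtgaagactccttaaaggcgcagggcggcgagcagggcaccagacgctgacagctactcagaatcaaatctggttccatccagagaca
This motif occurred in 11 of 21 promoters of the heat shock list (52.4%) and in 7.87% of the 31396 autosomal promoters of the same length, a description of the letters alone.

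The endoplasmic reticulum stress, glycolysis and NRF2 lists follow. They are not compared with the heat shock list, since that list was chosen after the values were seen. Of 20 endoplasmic reticulum stress genes, 8 positive and 6 negative interactions passed by adjusted p alone, the list median was 0.15 and 2 were called, both negative: Asns, asparagine synthetase (-1.32 ± 0.10), and Trib3, a pseudokinase of the ATF4 response (-1.17 ± 0.11). Both were higher in Nlrp3-/- control, at 23.7 against 7.37 FPKM for Asns and 14.5 against 3.25 FPKM for Trib3. Of 29 glycolysis and hypoxia genes, only Bnip3, a mitophagy receptor with several near copies and an overlap with Gm45507, was called (-1.12 ± 0.09), while adjusted p alone passed for 15 negative interactions and the list median was -0.32. None of 21 NRF2 antioxidant targets was called, with a median of -0.24 and 9 negative and 3 positive interactions by adjusted p alone.

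Of the 25 feedback inhibitors and members of the NF-κB pathway, 1 was called (4.00%, against 2.16% of all genes). It was Socs3, a suppressor of cytokine signalling, which went from 8.87 to 159 FPKM in wild-type and from 17.8 to 135 FPKM in Nlrp3-/- BMDMs (interaction -1.17 ± 0.07). The list median was -0.34, and 14 negative and 1 positive interactions passed by adjusted p alone (13.1% and 14.7% did so over all genes).

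Genes for scavenging and for the clearance of dying cells had called interactions in both directions. Marco, a scavenger receptor for bacteria, was at 8.38, 9.88 and 8.52 FPKM in wild-type control and 198, 207 and 202 FPKM with LPS+ATP, and at 28.2, 26.0 and 26.8 FPKM in Nlrp3-/- control and 179.8, 178 and 187 FPKM with LPS+ATP. The control groups did not overlap, and the interaction was -1.66 ± 0.08. Gas6, a bridging ligand for the clearance of dying cells that overlaps an exon of Tmem255b, was at 275, 286 and 278 FPKM in wild-type control and 11.3, 12.1 and 10.7 FPKM with LPS+ATP, and at 91.7, 89.2 and 91.4 FPKM in Nlrp3-/- control and 10.2, 10.9 and 9.54 FPKM with LPS+ATP. The stimulated groups overlapped and the controls were apart, giving an interaction of 1.47 ± 0.07. Marco and Gas6 were the 2 called genes of 20 scavenger and efferocytosis genes (median -0.32), and none of 21 macrophage lineage genes (median 0.09) or 14 MHC class II and costimulation genes (median 0.01) was called.

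Matrix genes were called with the fibroblast markers apart between genotypes, and the part of those cells in the result was not tested. Of 26 collagen and matrix genes, 2 were called, Lox (-1.57 ± 0.08), which cross-links collagen, and Timp3 (-1.32 ± 0.06), an inhibitor of metalloproteinases with overlaps. Their list median was -0.53, and 19 negative and 1 positive interactions passed by adjusted p alone. Lox, on chromosome 18 and overlapping AC161119.1, was at 28.9 FPKM on average in wild-type control, 101 FPKM with LPS+ATP, 209.9 FPKM in Nlrp3-/- control and 242 FPKM with LPS+ATP. Of 20 metalloproteinase and plasminogen genes, 3 were called with a list median of -0.47, among them the protease inhibitor gene Serpinb2 (-1.41 ± 0.21) and the gelatinase gene Mmp2 (-1.16 ± 0.08).

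Among the other genes with the largest weaker induction was Wfdc21, a small secreted protein of the whey acidic protein family. It was at 2.41, 2.11 and 3.73 FPKM in wild-type control and 19.4, 20.9 and 22.4 FPKM with LPS+ATP, and at 17.4, 17.9 and 16.3 FPKM in Nlrp3-/- control and 23.2, 23.2 and 22.5 FPKM with LPS+ATP. The Nlrp3-/- control libraries lay close to the stimulated ones, and the interaction was -2.17 ± 0.17.

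Interferon-stimulated genes, which are switched on by type I interferon through ISGF3, were induced strongly in both genotypes, 39 of 40 in wild-type and 40 of 40 in Nlrp3-/- BMDMs. Of the 40 interactions, 34 were above 0, 27 positive and 3 negative ones passed by adjusted p alone, and 3 were called: Ifit3b and Ifit3 positive and Isg20 negative. The list median was 0.29, and it stayed above 0 under every pseudocount and scaling tried (0.16 to 0.38). Summed FPKM of the list was nevertheless lower with LPS+ATP in Nlrp3-/- BMDMs (6760.2 to 6807) than in wild-type BMDMs (8342 to 8386), as it was in control (408 to 428 against 597 to 608).

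Ifit3, an antiviral protein of the IFIT family, was at 16.3, 17.1 and 16.3 FPKM in wild-type control and 461, 496 and 493 FPKM with LPS+ATP, and at 6.96, 6.74 and 7.73 FPKM in Nlrp3-/- control and 584, 607 and 595 FPKM with LPS+ATP. It was lower in every Nlrp3-/- control library and higher in every stimulated one than in wild-type, and the interaction was 1.41 ± 0.07 (adjusted p = 1.38e-07). Ifit3b, a near copy that may share reads, had an interaction of 1.53 ± 0.16. Isg20, an interferon-induced exonuclease, went from 1.41 to 63.9 FPKM in wild-type and from 1.94 to 35.5 FPKM in Nlrp3-/- BMDMs (interaction -1.13 ± 0.15).

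The promoter of Ifit3 is printed as the called gene of the interferon list with the largest stimulated level. It spans chr19:34583279-34583578 of GRCm38.p6 on the plus strand (RefSeq), and capitals mark GAAANNGAAA, the core of an interferon-stimulated response element, searched on both strands. Both matches lie on the opposite strand and so appear as the reverse complement.
Ifit3: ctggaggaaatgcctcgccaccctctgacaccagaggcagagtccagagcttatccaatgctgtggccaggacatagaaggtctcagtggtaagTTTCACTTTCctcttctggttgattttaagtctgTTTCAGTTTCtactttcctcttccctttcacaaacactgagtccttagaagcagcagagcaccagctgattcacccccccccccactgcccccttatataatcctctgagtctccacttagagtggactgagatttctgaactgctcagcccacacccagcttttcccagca
Of 37 promoters found for 30 of the interferon-stimulated genes, 20 held the motif (54.1%), against 3.46% of all 31396 autosomal promoters. Promoters of the heat shock list and of the arginine list held it in 0 of 21 and 0 of 8.

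Guanylate-binding proteins and immunity-related GTPases, which respond mainly to interferon-γ, gave 0 called interactions of 15, with 4 positive and 4 negative by adjusted p alone. Their median of 0.02 turned to -0.09 with median-ratio scaling. Ifi27l2a, an interferon-responsive mitochondrial protein, was at 43.4, 45.4 and 49.3 FPKM in wild-type control and 38.1, 45.6 and 46.5 FPKM with LPS+ATP, and at 15.9, 16.1 and 13.9 FPKM in Nlrp3-/- control and 38.5, 34.8 and 42.2 FPKM with LPS+ATP. Only the Nlrp3-/- control libraries stood apart, at a lower level, and the interaction was 1.36 ± 0.13.

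Immediate early genes, transcribed within minutes of a signal, gave 3 called interactions of 29, all positive, with a median of -0.08. By adjusted p alone 8 positive and 9 negative ones passed, and 12 members lay above 0 and 17 below. Fosb, an AP-1 subunit, was at 0.0747, 0.0763 and 0.0583 FPKM in wild-type control and 1.79, 1.83 and 2.02 FPKM with LPS+ATP, and at 0.244, 0.126 and 0.172 FPKM in Nlrp3-/- control and 11.3, 9.94 and 9.25 FPKM with LPS+ATP. Every stimulated Nlrp3-/- library exceeded every stimulated wild-type library, and the interaction was 1.81 ± 0.10 (adjusted p = 5.21e-07). Nr4a1, an orphan nuclear receptor, rose to 16.6 FPKM in Nlrp3-/- BMDMs while it was 5.09 FPKM in wild-type LPS+ATP (interaction 1.42 ± 0.13).

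Dusp2, a MAP kinase phosphatase, was at 2.21, 2.19 and 2.35 FPKM in wild-type control and 1.27, 0.800 and 1.08 FPKM with LPS+ATP, and at 1.65, 1.73 and 1.68 FPKM in Nlrp3-/- control and 3.04, 3.52 and 3.09 FPKM with LPS+ATP. The direction of its response differed between genotypes (-0.67 and 0.65), although neither response reached 1, and the interaction was 1.32 ± 0.11. Enc1, an actin-associated protein gene, was likewise at 12.1 and 8.52 FPKM in wild-type control and LPS+ATP and at 10.9 and 23.2 FPKM in Nlrp3-/- control and LPS+ATP, with an interaction of 1.49 ± 0.07.

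Cell-cycle genes fell less in Nlrp3-/- BMDMs. Of 30 mitosis genes, 27 were repressed in wild-type and 13 in Nlrp3-/- BMDMs. A called positive interaction was found for 8 (26.7%, against 0.723% of all genes), and 29 positive and 1 negative interactions passed by adjusted p alone. The list median was 0.71, against 0.02 over all genes. Of 28 DNA replication genes, 21 were repressed in wild-type and 10 in Nlrp3-/- BMDMs. Here 4 had a called positive interaction (14.3%, against 0.723% of all genes), 19 positive ones passed by adjusted p alone and the median was 0.47.

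Ccnb2, encoding the mitotic cyclin B2, was at 16, 19.4 and 17.5 FPKM in wild-type control and 1.29, 1.68 and 1.15 FPKM with LPS+ATP, and at 14.3, 13.9 and 15 FPKM in Nlrp3-/- control and 5.68, 5.98 and 5.45 FPKM with LPS+ATP. The stimulated Nlrp3-/- libraries were well above the highest stimulated wild-type library, while the controls were close without overlapping. It fell 12.8-fold in wild-type and 2.52-fold in Nlrp3-/- BMDMs, an interaction of 1.78 ± 0.12 (adjusted p = 1.91e-06).

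Plk1, a kinase that drives mitotic entry and spindle assembly, was at 10.1, 10.4 and 10.5 FPKM in wild-type control and 0.854, 1.23 and 0.755 FPKM with LPS+ATP, and at 11.4, 11.6 and 11.1 FPKM in Nlrp3-/- control and 4.71, 4.32 and 3.94 FPKM with LPS+ATP. Again the genotypes were separate mainly with LPS+ATP, and the interaction was 1.33 ± 0.12. Plk1 overlaps Gm44985. Ccna2, cyclin A2, which overlaps Exosc9, had an interaction of 1.47 ± 0.09 with stimulated levels of 0.771 FPKM in wild-type against 4.34 in Nlrp3-/- BMDMs.

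Of the replication genes, Rrm2, the regulatory subunit of ribonucleotide reductase, fell from 12.2 to 1.22 FPKM in wild-type and from 15.9 to 5.52 FPKM in Nlrp3-/- BMDMs (interaction 1.20 ± 0.10). Uhrf1, which maintains DNA methylation at the fork and has a near copy in Gm5648, had an interaction of 1.23 ± 0.08 with stimulated levels of 1.20 FPKM in wild-type against 4.99 in Nlrp3-/- BMDMs. Fen1, the flap endonuclease, had one of 1.28 ± 0.09 that rested on the controls, where wild-type had 15.1 FPKM and Nlrp3-/- BMDMs 6.29. It overlaps and shares a near copy with Gm10143. All mitosis and replication calls depended on the pseudocount. With a pseudocount of 5, 0 mitosis and 0 replication genes passed the size limit in limma, the interactions of Ccnb2, Plk1, Ccna2, Rrm2, Uhrf1 and Fen1 being 0.97, 0.55, 0.60, 0.48, 0.53 and 0.90, and the medians were 0.26 and 0.19. A pseudocount of 0.1 gave calls for 25 mitosis and 11 replication genes, with medians of 1.44 and 0.81.

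Promoters of the mitosis genes Ccnb2 and Plk1 are shown because these genes fell less together. Capitals mark TTTGAA, the cell cycle genes homology region (CHR), searched on both strands. The Ccnb2 window lies at chr9:70421505-70421804 on the minus strand and that of Plk1 at chr7:122159185-122159484 on the plus strand of GRCm38.p6 (RefSeq).
Ccnb2: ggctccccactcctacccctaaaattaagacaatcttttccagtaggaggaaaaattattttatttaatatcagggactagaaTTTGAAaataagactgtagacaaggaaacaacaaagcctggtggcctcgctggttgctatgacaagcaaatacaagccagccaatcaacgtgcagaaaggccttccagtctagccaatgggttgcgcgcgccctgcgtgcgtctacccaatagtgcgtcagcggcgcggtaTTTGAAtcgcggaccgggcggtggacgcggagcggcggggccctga
Plk1: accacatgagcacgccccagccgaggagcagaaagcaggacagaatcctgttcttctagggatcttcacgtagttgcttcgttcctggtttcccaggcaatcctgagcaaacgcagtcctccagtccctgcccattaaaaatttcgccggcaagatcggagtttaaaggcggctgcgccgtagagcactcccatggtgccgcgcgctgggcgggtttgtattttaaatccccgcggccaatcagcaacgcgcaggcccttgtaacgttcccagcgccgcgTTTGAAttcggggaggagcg
The CHR letters occurred in 21 of 27 promoters found for 26 mitosis genes (77.8%) and in 17.6% of all autosomal promoters, and CCAAT in 22 of the 27 (81.5%) against 37.3%. In promoters of the replication genes, CHR letters occurred in 3 of 27 (11.1%) and CCAAT in 14 of 27 (51.9%).

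Other genes of weaker repression were apart in control. Cd28, best known as a costimulatory receptor of T cells, was at 20.1, 16.7 and 17.2 FPKM in wild-type control and 0.153, 0.0934 and 0.208 FPKM with LPS+ATP, and at 5.08, 4.60 and 4.88 FPKM in Nlrp3-/- control and 0.191, 0.203 and 0.333 FPKM with LPS+ATP. Its stimulated groups overlapped near 0 while the controls did not, and the interaction was 1.80 ± 0.11 (adjusted p = 8.59e-07). The T cell markers Cd3d, Cd3e and Cd3g together were at most 0.0905 FPKM in any library. The class also held 3 T cell receptor V gene segments, Trav13-4-dv7 (interaction 1.83), Trav14n-3 (1.46) and Trav13n-4 (1.27). In that order their means were 5.92, 3.74 and 1.72 FPKM in wild-type control and 0.851, 0.658 and 0.153 FPKM in Nlrp3-/- control. With LPS+ATP their means were at most 0.0895 FPKM. All 3 passed the filter of 1 FPKM only with the wild-type control libraries and so had to be higher there. The part of T cells in these values was not tested.

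The same pattern of a higher wild-type control and stimulated levels near 1 FPKM or below held for Mamdc2 (interaction 1.53), Tmem154 (1.49), Slc9a9, a sodium-proton exchanger of endosomes (1.43), and Pcp4l1 (1.37). For Pcp4l1 the ratio of means was not weaker in Nlrp3-/- BMDMs, with falls of 65.5-fold in wild-type and 74.8-fold in Nlrp3-/- BMDMs, and the interaction was 0.55 with a pseudocount of 0.1. Sesn1, a stress-inducible regulator of mTORC1, was the gene with the second largest wild-type repression, falling from 52.5 to 1.61 FPKM, and had an interaction of 1.04 ± 0.08 that was 0.98 without the first wild-type LPS+ATP library. Slc46a3, Cd300lb and Arhgap19, also among the 5 most repressed genes of wild-type BMDMs, had interactions of 0.89, 0.51 and 0.49 and were not called.

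None of the lipid genes listed was called. Of 22 sterol synthesis genes and SREBP2 targets, 0 were called by the limma fit, 17 positive and 1 negative interactions had an adjusted p under 0.05 and the median was 0.60, and 11 were repressed in wild-type against 1 in Nlrp3-/- BMDMs. The fatty acid list gave 0 of 14 (median 0.15, with 6 positive and 2 negative by adjusted p alone), including the desaturase genes Fads2 (0.88 ± 0.08), Fads1 (0.58 ± 0.06) and Scd1 (0.57 ± 0.05). Under a pseudocount of 0.1, 4 sterol genes and 3 fatty acid genes had a called positive interaction and 1 fatty acid gene a negative one, and with TPM 3 and 2 were positive, Fads2 among them (1.03 and 1.01). LXR targets gave 0 of 15 with a median of 0.00 and 4 passing in each direction by adjusted p alone.

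Ribosomal protein and respiratory chain genes gave no call. Of 38 cytosolic ribosomal protein genes, 0 were called, 37 interactions were above 0, 25 positive and 1 negative had an adjusted p under 0.05 and the median was 0.28 (0.24 with median-ratio scaling). Of 36 oxidative phosphorylation genes, 0 were called, 9 positive ones passed by adjusted p alone (14.7% did so over all genes) and the median was 0.14.

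**Figure D4:**
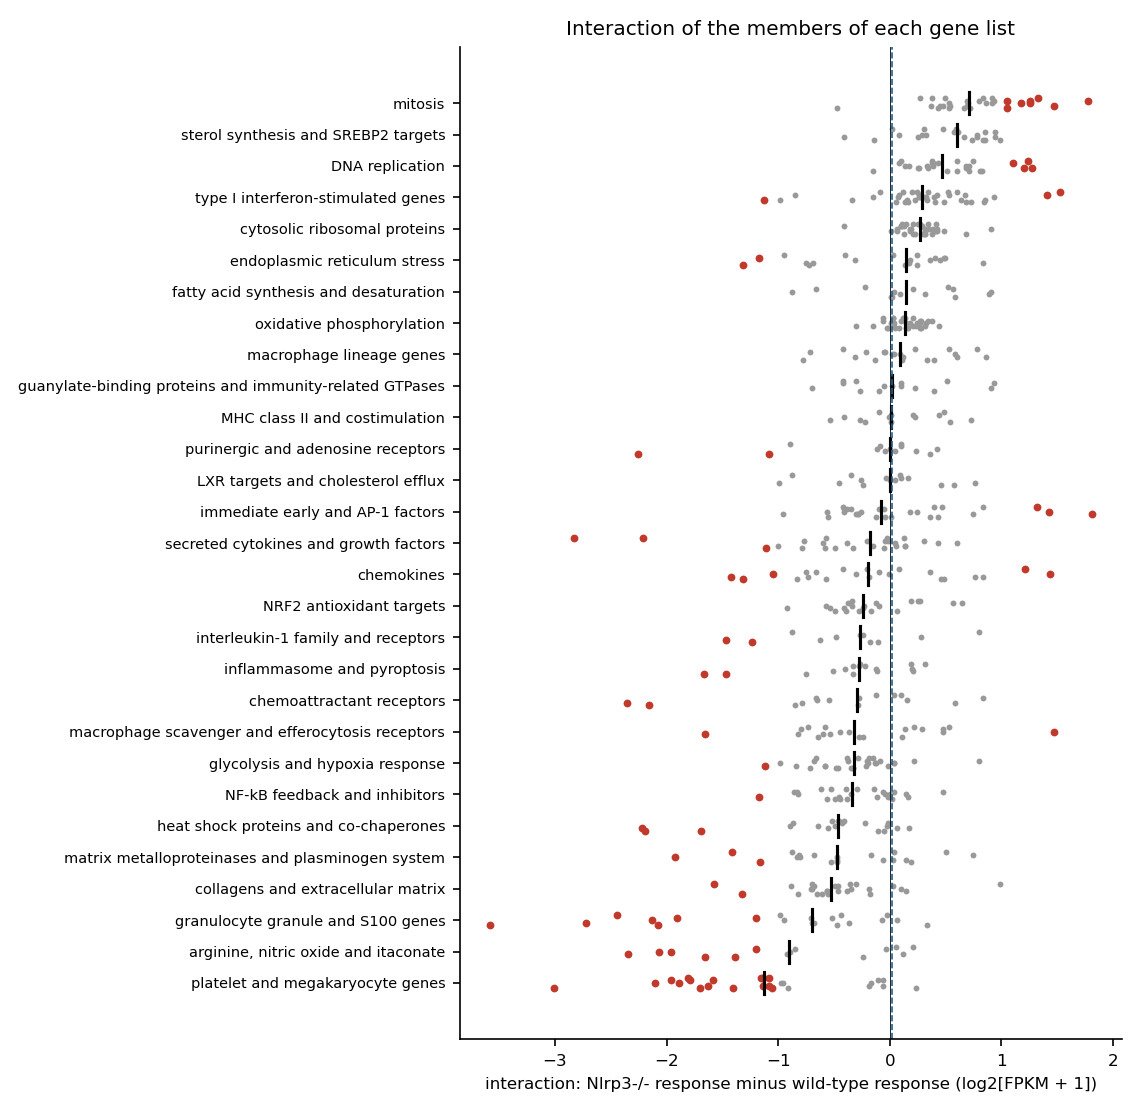
Interaction (x axis, log2[FPKM + 1]) of the tested autosomal members of the 29 gene lists on the y axis, ordered by median. Red points are called genes, grey points are not, black bars are list medians and the dashed line is the median of all 12174 genes, 0.02. Mitosis genes (median 0.71) lie at the top, and the arginine (-0.91) and platelet (-1.13) lists at the bottom. The platelet and heat shock lists were chosen after the values were seen, so their place in the order is no result.

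Genes of granulocyte granules were repressed more in Nlrp3-/- BMDMs. Of 20 granule and S100 genes, 7 were called, all negative, of which 6 had a stronger repression and 1, the siderophore-binding protein gene Lcn2, a weaker induction (-2.08). In all, 15 negative interactions passed by adjusted p alone and the median was -0.70. Mpo, the neutrophil myeloperoxidase, was at 2.02, 2.14 and 2.09 FPKM in wild-type control and 0.0414, 0.0720 and 0.127 FPKM with LPS+ATP, and at 58.4, 50.5 and 51.0 FPKM in Nlrp3-/- control and 0.623, 0.589 and 0.544 FPKM with LPS+ATP. Nlrp3-/- control libraries stood far above the others, and the interaction was -3.58 ± 0.09 (adjusted p = 1.18e-09).

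Elane, neutrophil elastase, was at 4.32, 3.53 and 4.57 FPKM in wild-type control and 0.0720, 0.249 and 0.395 FPKM with LPS+ATP, and at 65.8, 66.5 and 64.2 FPKM in Nlrp3-/- control and 1.16, 1.35 and 1.83 FPKM with LPS+ATP. The order of the groups was that of Mpo, and the interaction was -2.72 ± 0.17. Ms4a3, a marker of granulocyte-monocyte progenitors, had an interaction of -2.44 ± 0.20, and the protease gene Ctsg one of -1.91 ± 0.15 that was -0.86 with a pseudocount of 0.1. Ms4a3 passed the filter of 1 FPKM only with the Nlrp3-/- control libraries and so had to be higher there. The granulocyte markers summed to 1868 FPKM or more in every Nlrp3-/- control library and 378 FPKM or less in every wild-type control library, and the part of those cells in these interactions was not tested. Mpo overlaps Gm11505.

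Serpinb1a, an inhibitor of neutrophil proteases, and Hpgd, which inactivates prostaglandins, were likewise highest in Nlrp3-/- control, with 14 and 12.3 FPKM in Nlrp3-/- control against 3.74 and 1.5 FPKM in wild-type control and interactions of -1.82 ± 0.13 and -1.73 ± 0.22.

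Ppbp, the platelet basic protein from which CXCL7 is cut, was the 1 gene with called responses in opposite directions. It was at 35, 30.0 and 29.0 FPKM in wild-type control and 80.4, 80.8 and 79.9 FPKM with LPS+ATP, and at 112, 106 and 106 FPKM in Nlrp3-/- control and 35, 31.4 and 33.0 FPKM with LPS+ATP. Thus wild-type control and Nlrp3-/- LPS+ATP overlapped at the low level, and the other groups were high. It rose 2.57-fold in wild-type and fell 3.26-fold in Nlrp3-/- BMDMs, an interaction of -3.01 ± 0.09 (adjusted p = 5.18e-09).

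Other platelet and megakaryocyte genes were examined with a list of 26 tested genes chosen after the values were seen. Of these, 17 were called (65.4%, against 2.16% of all genes), all negative, and the median was -1.13. The choice of the list makes that share no support for a pattern. Only 3 of the list were called with a pseudocount of 5 (median -0.48) and 20 with one of 0.1 (median -1.85). Itga2b, the integrin αIIb of the fibrinogen receptor, was at 2.95, 3.01 and 2.81 FPKM in wild-type control and 8.37, 7.56 and 8.42 FPKM with LPS+ATP, and at 10.2, 8.40 and 9.10 FPKM in Nlrp3-/- control and 4.23, 4.49 and 4.82 FPKM with LPS+ATP. Wild-type LPS+ATP and Nlrp3-/- control overlapped as the high groups, and the interaction was -2.11 ± 0.10.

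Of the called platelet genes beside Ppbp and Itga2b, 9 were in the stronger repression class and 6 had neither response called, each at low levels. Nrgn (-1.96), the thrombin receptor gene F2r (-1.89), its relative F2rl2 (-1.79) and Gucy1b3, a subunit of the nitric oxide receptor (-1.81), all had higher means in wild-type LPS+ATP than in wild-type control and lower means in Nlrp3-/- LPS+ATP than in Nlrp3-/- control. The von Willebrand factor receptor genes Gp1bb (-1.70, overlapping Sept5), Gp9 (-1.58), Gp5 (-1.63) and Gp1ba (-1.14) had the same order. Tubb1 had an interaction of -1.40, Treml1 of -1.15, Alox12 of -1.13, Selp of -1.13, Nfe2 of -1.08, P2rx1 of -1.08 and Slc6a4 of -1.05. Without the second wild-type or the second Nlrp3-/- LPS+ATP library, Nfe2 fell short of the limit at -0.99, as did P2rx1 at -0.99 without the first Nlrp3-/- LPS+ATP library and Slc6a4 at -0.97 without the second Nlrp3-/- control library. Not all platelet genes took part: Pf4, platelet factor 4, had an interaction of -0.18, Vwf of -0.06 and Rgs18 of -0.06.

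**Figure D5:**
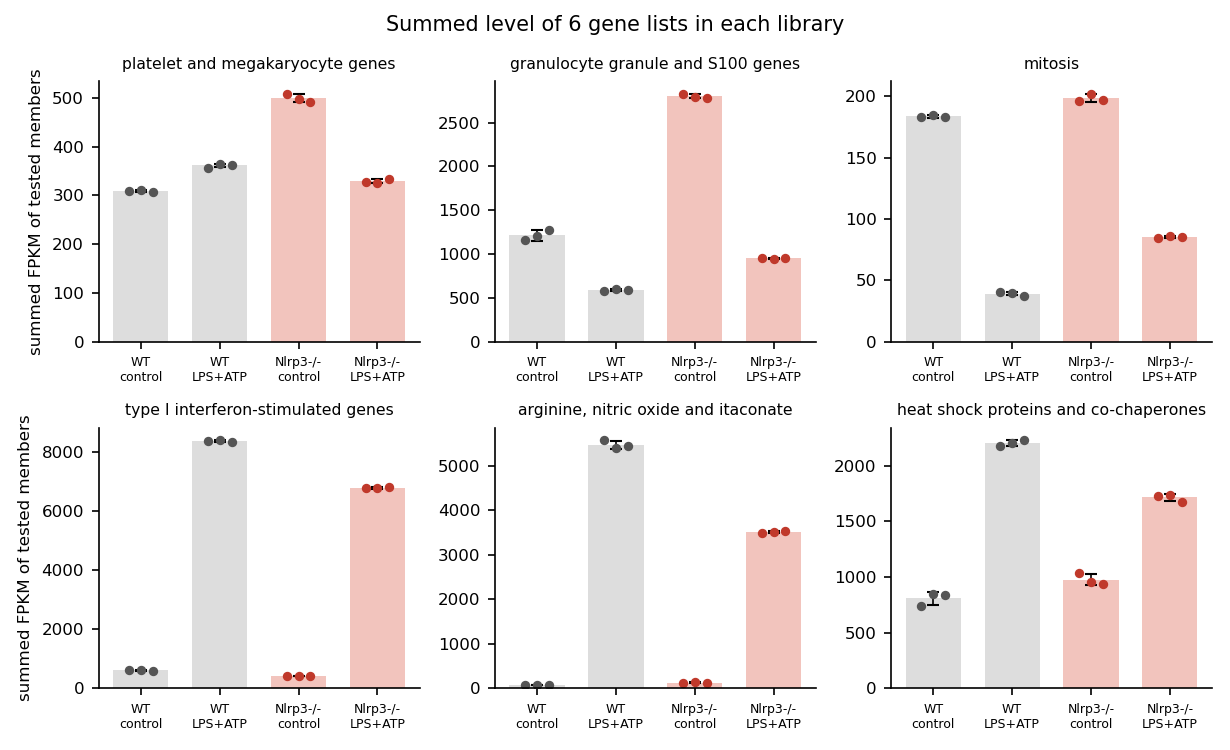
Summed FPKM (y axis, from 0) of the tested members of 6 gene lists by group on the x axis, wild-type (WT) in grey and Nlrp3-/- in red. Bars are means and error bars the SD of 3 libraries, which are drawn as points. Platelet genes sum to 491 to 508 FPKM in Nlrp3-/- control and 308 to 365 FPKM in the other groups, while mitosis genes sum to 84.5 to 85.9 FPKM in Nlrp3-/- and 37.6 to 40.4 FPKM in wild-type LPS+ATP.

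Without the granulocyte, platelet and collagen lists and the markers of fibroblasts and of neutrophils and their precursors, 237 called interactions were counted. This restriction was chosen after the data were seen. Restricted to protein-coding genes, 237 were counted as well, and 137 of the 263 had a group mean of at least 10 FPKM. Only 65 of the 263 were still called with a pseudocount of 5. Besides the genes for which this was given above, the calls of Il27, Hspb1, Asns, Trib3, Bnip3, Socs3, Timp3, Mmp2, Serpinb2, Isg20, Dusp2, Mamdc2, Tmem154, Slc9a9 and Sesn1 ended under it.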

How the data were processed

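RNA was sequenced from 12 libraries, 3 in each of 4 groups. The authors deposited 1 table of FPKM per gene and library. The submitters' processing notes name DESeq2 1.24.0 and genome build GRCm39, while the aligner, the counting and its use of strand are not given in the sources used here. FPKM gives no read counts, so depth in reads is unknown. Relative depth read from steps between low values ran from 1.0 to 1.218.

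Genes that reached 1 FPKM in 3 or more libraries were tested on log2(FPKM + 1) in limma 3.58.1 (R 4.3.3) with 1 mean per group and a trended variance. Contrasts were the interaction and both responses, adjusted (Benjamini-Hochberg) over all 12622 genes. Calls needed an adjusted p under 0.05 and 1 log2 unit. The log scale understates changes of low genes. The fit was tested on simulated data: of 200 genes with an interaction of 1.5 log2 units among 12622, 191 (95.5%) were called, with 1 unchanged gene.

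Chromosomes, overlaps and near copies (blastn 2.17.0+, 95% identity over 20% of the transcript) came from GENCODE M21, which holds 55154 of the 55335 identifiers, and promoters from RefSeq (GRCm38.p6). Python 3.11.15, pandas 2.3.3, numpy 2.4.6 and matplotlib 3.10.9 were used.

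Named genes were Nlrp3, per class the 6 largest calls of protein-coding genes with a group mean of at least 10 FPKM and no overlap or near copy, per list the 3 largest calls, the 5 genes most induced and most repressed in wild-type BMDMs, and 20 inflammasome, cytokine and lipid genes. Others were named after their values were seen. One gene that the rule named is not reported here. The members and lists were chosen with earlier results of these data known. Alternatives were other pseudocounts, filters, scalings, TPM, a replicate block, no trend, no fold limit, unadjusted p, adjustment over autosomal genes alone and leaving out each library.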

Additional observations from a re-analysis of the deposited data

Results flagged for a closer look

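Each gene below was marked because its LPS+ATP response differed between wild-type and Nlrp3-/- BMDMs by the test of the difference itself, the interaction term of the limma fit, with an adjusted p under 0.05 and a size of at least 1 log2 unit. The values are interactions (Nlrp3-/- response minus wild-type response) on the log2(FPKM + 1) scale, and levels of the main ones are given in the report.

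Genes with a weaker induction in Nlrp3-/- BMDMs were Inhba (-2.83), Fpr2 (-2.35), Arg1 (-2.34), Adora2b (-2.25), Hspa1b (-2.22), Il12b (-2.21), Hspa1a (-2.19), Wfdc21 (-2.17), Fpr1 (-2.16), Itga2b (-2.11) and Acod1 (-2.07). In the same class were Ptgs2 (-1.96), Hspb1 (-1.69), Nlrp3 (-1.67), Marco (-1.66), Nos2 (-1.65), Lox (-1.57), Il1b (-1.46), Cxcl2 (-1.42), Serpinb2 (-1.41), Timp3 (-1.32) and Cxcl1 (-1.32). In the same class were Asns (-1.32), Il1a (-1.23), Trib3 (-1.17), Socs3 (-1.17), Mmp2 (-1.16), Isg20 (-1.13), Bnip3 (-1.12) and Il27 (-1.11). A stronger induction was found for Fosb (1.81), Ifit3b (1.53), Enc1 (1.49), Ccl4 (1.43), Nr4a1 (1.42), Ifit3 (1.41), Ifi27l2a (1.36) and Cxcl9 (1.21). Repression was weaker for Cd28 (1.8), Ccnb2 (1.78), Mamdc2 (1.53), Tmem154 (1.49), Gas6 (1.47), Ccna2 (1.47), Slc9a9 (1.43), Pcp4l1 (1.37), Plk1 (1.33), Fen1 (1.28) and Uhrf1 (1.23). In the same class were Rrm2 (1.2) and Sesn1 (1.04). Repression was stronger for Mpo (-3.58), Elane (-2.72), Ms4a3 (-2.44), Nrgn (-1.96), Ctsg (-1.91), F2r (-1.89), Serpinb1a (-1.82), Gucy1b3 (-1.81), F2rl2 (-1.79), Hpgd (-1.73) and Gp5 (-1.63). In the same class were Tubb1 (-1.4), Treml1 (-1.15), Nfe2 (-1.08) and P2rx1 (-1.08). The response was reversed for Ppbp (-3.01). Neither response reached the limit for Gp1bb (-1.7), Gp9 (-1.58), Dusp2 (1.32), Gp1ba (-1.14), Alox12 (-1.13), Selp (-1.13) and Slc6a4 (-1.05).

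The part of sex, of substrain or other genetic background, or of other cells in these differences was not tested.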

How the results depend on the processing

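All 263 called interactions kept their sign under every setting in which they were tested. A pseudocount of 0.1 gave 614 calls (263 positive, 351 negative) and a pseudocount of 5 gave 71 (21 and 50), of which 65 were among the 263. The stimulation calls were then 3570 and 1117 in wild-type and 2736 and 831 in Nlrp3-/- BMDMs. With a pseudocount of 0.1 there were 214 genes with weaker induction, 222 with weaker repression, 94 with stronger repression and 11 reversed, and with a pseudocount of 5 there were 31 with weaker induction, 11 with stronger induction, 8 with weaker repression, 16 with stronger repression and 4 with neither response called. FPKM rescaled to TPM gave 487 calls (195 positive, 292 negative) with 159 weaker inductions, 154 weaker repressions, 91 stronger repressions and 7 reversed genes. Without a fold limit there were 3386 calls (1792 positive, 1594 negative), 9291 and 9051 stimulation calls in wild-type and Nlrp3-/- BMDMs, and 889 weaker inductions, 302 stronger inductions, 1447 weaker repressions, 585 stronger repressions, 158 reversed genes and 5 with neither response called. A filter of at least 5 FPKM left 30 stronger repressions and 10 with neither response called, and gave 185 interaction calls. Median-ratio scaling gave 38 stronger repressions and 271 interaction calls. Unadjusted p gave 2 reversed genes. Without the granulocyte, platelet and collagen lists and the fibroblast and neutrophil markers there were 0, since Ppbp is in the platelet list. The cause of the other changes was not tested. The positive share of the calls was 33.5% and ranged from 29.4% with upper-quartile scaling to 52.9% without a fold limit.

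Leaving out each library in turn gave 259 to 271 calls, 81 to 92 positive and 174 to 184 negative, with 2339 to 2386 and 1800 to 1821 stimulation calls and 1 to 3 reversed genes. Replicate numbers come from the sample labels. Deviations of same-numbered libraries from their group means had r of -0.0565 to 0.0528 over 18 pairs, so no large shared shift was seen. This cannot show whether they came from the same animal or culture, which the labels do not give. A fit with the replicate number as a block gave 259 calls, 258 of them among the 263, and 2 reversed genes.

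No named gene reversed. The interaction of Tnf, not called here, passed under 3 scalings and a pseudocount of 0.1 (-1.05 to -1.03) and without the second or the third library of either wild-type group, the third Nlrp3-/- control or the second Nlrp3-/- LPS+ATP library (-1.03 to -1.01), and those of Fads2 and Il6 passed with a pseudocount of 0.1 (1.03 and -2.01) and with TPM (1.01 and -1.19), as did Arhgap19 with 0.1 (1.15) and Slc46a3 without the third wild-type or the third Nlrp3-/- control library (1.01 and 1.08). These libraries limit what can be said of genes whose control values lie near the pseudocount. Neither sex nor substrain or other genetic background can be told apart from genotype, and control samples are shared by the response and genotype contrasts.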

Other observations

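The next 4 genes, which are in no list, were picked from the 92 weaker inductions after their values were seen, so they describe no group. Hp, haptoglobin, went from 55.7 to 468 FPKM in wild-type and from 221 to 669 FPKM in Nlrp3-/- BMDMs (interaction -1.46). Saa3, serum amyloid A3, went from 12.5 to 2244 and from 22.1 to 1700.3 FPKM (-1.18), and the complement gene C3 from 25 to 127 and from 74.3 to 169.6 FPKM (-1.12). Cp, ceruloplasmin, reached the same level in both genotypes, 16.3 and 16.1 FPKM, from 1.28 and 4.93 FPKM (-1.39). In each of these the Nlrp3-/- control mean was above the wild-type control mean.

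Another 3 genes were picked from the stronger repressions in the same way. Prg2, an eosinophil granule protein, was at 4.08, 1.83, 12.1 and 2.20 FPKM in control and stimulated wild-type and then control and stimulated Nlrp3-/- BMDMs (interaction -1.19), the basophil protease gene Prss34 at 1.73, 0.567, 6.51 and 0.690 FPKM (-1.36), and the β-globin gene Hbb-bs at 0.10, 0.241, 3.82 and 1.12 FPKM (-1.35). The summed erythroid and the summed mast cell and basophil markers given in the report were likewise highest in Nlrp3-/- control, and the part of those cells in these values was not tested.

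For 10 of the 263 genes, both group means of one genotype were under 0.1 FPKM. Besides Nlrp3 they include Gm21451, an unprocessed pseudogene at 39.7 FPKM in Nlrp3-/- control, 0.0396 FPKM in Nlrp3-/- LPS+ATP and 0 in both wild-type groups (interaction -5.29), and Gm42031 at 22.9 and 2.96 FPKM in wild-type control and LPS+ATP and at 0.0137 and 0.00221 FPKM in Nlrp3-/- BMDMs (2.58). Gm21451 overlaps Gm16867, so their reads are uncertain, and it passed the filter only with the Nlrp3-/- control libraries. The identifier of Nnt that was at 0 in wild-type libraries is another, with an interaction of -1.0. The largest interaction of all, -5.48 ± 1.68 (SE), was that of Hist2h2aa1, a gene of a family with near-identical copies. Hist2h2aa1 was listed at 0 in wild-type control and in Nlrp3-/- LPS+ATP. Its SE was far above the median SE of 0.1 over all genes, so the size of this interaction is uncertain.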
